A study of Mus musculus with 42 samples.

Results

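The genes described here encode the Kv4 potassium channels and the proteins that bind them: the pore subunits Kcnd1, Kcnd2 and Kcnd3, the cytoplasmic KChIP subunits Kcnip1, Kcnip2, Kcnip3 and Kcnip4, and the membrane subunits Dpp6 and Dpp10. They are the 9 genes of this complex with a probe set on the array, chosen by symbol. The array's annotation gave these symbols to 27 of the 45037 probe sets in the values table, and the table's probe sets with a single symbol covered 18193 genes. All 27 probe sets passed the filter on low values, which asked for 3 arrays with a log2 value over 5. Expression was measured on Affymetrix MOE430.2 arrays in Purkinje cells, which carry the output of the cerebellar cortex, and in Stellate/Basket cells, interneurons of the molecular layer that inhibit them. Purkinje cells came from 7 ages, with 3 arrays each at P3, P7 and P14 and 4 at each of P21, P28, P35 and P56. Stellate/Basket cells were taken at P14 (4 arrays), P21 (3), P28 (4), P35 (2) and P56 (2). Every animal was an untreated mouse of the strain CB6-Tg(Gad1-EGFP)G42Zjh/J, a Gad67-GFP BAC transgenic in which GFP marks GABAergic neurons, and was labelled male.

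The cells were picked by hand from protease-treated cerebellar slices by their GFP and the size of their soma, in the presence of AP5, CNQX and TTX, and their RNA went through 2 rounds of amplification. The labels call the replicates biological and do not say how many animals or cells each array pooled. The values are log2 expression per probe set as deposited, between 3.94 and 14.3, with array medians between 5.91 and 6.16. No detection calls came with them, so a value near the low end may be background. The precision depends on how many arrays a group has and on 1 estimate of the spread per probe set, shared by all 12 groups. A standard error therefore does not show how far apart the arrays of the groups compared lay. Each gene is represented by the probe set whose mean was highest, unless another is named, and log2 levels are compared within a probe set only. Each difference subtracts Stellate/Basket cells from Purkinje cells, or an earlier from a later age, and the value after ± is its standard error from limma. A gene was called where its Benjamini-Hochberg adjusted p over all 41843 tested probe sets was under 0.05 and its log2 difference at least 1.

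Kv4 channels carry the A-type potassium current of neurons, which opens below the spike threshold, inactivates within milliseconds and delays firing. KChIPs are EF-hand calcium-binding proteins that hold the channel's cytoplasmic end and bring it to the surface, and the dipeptidyl peptidase-like proteins DPP6 and DPP10, which have lost peptidase activity, speed its opening and inactivation. A native channel joins pore subunits with both kinds of partner, and mutations of KCND3 cause a spinocerebellar ataxia in humans.

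Several groups of arrays stood apart from their labels. At P3 and P7 the Purkinje arrays averaged 9.57 and 9.54 over 7 molecular layer interneuron markers, against 5.67 to 5.79 at the later ages, and 7.97 and 9.35 over 10 Purkinje markers, against 12.4 to 12.6 later. Kit and Tfap2b, which mark interneurons, averaged 9.62 and 11.5 in Purkinje arrays at P3, but Lypd6, of the same list, averaged 6.21. From P3 to P56 in Purkinje arrays, 6 of the 7 interneuron markers were called lower. Markers of Golgi and unipolar brush cells averaged 8.999 and 8.94 at P3 and P7, against 6.18 to 6.57 later, and granule cell markers 7.03 and 7.13, against 5.96 to 6.27 later. Of 8 granule cell markers, 2 were called lower from P3 to P56. Neurod1 averaged 10.4 and 10.7 at P3 and P7 and Neurod2 10.5 and 10.3, while Gabra6 was at 5.41 and 5.64 and Slc17a7 at 5.53 and 5.52. Neurod1 also averaged 10.6 in Stellate/Basket cells at P14. The 2 Stellate/Basket arrays at P56 averaged 11.6 over the Purkinje markers, with 12.27 in replicate 1 and 10.89 in replicate 3, and 5.97 over the interneuron markers, against 9.27 to 10.3 at P14 to P35. Purkinje marker means in Stellate/Basket arrays were 8.43 at P14, 9.39 at P21, 10.2 at P28 and 9.94 at P35. Markers of astrocytes and Bergmann glia averaged 7.41 in Stellate/Basket arrays at P14 and 9.58 to 10.8 at the later ages. Xist, transcribed from the inactive X chromosome of female cells, was above a log2 value of 9 in 27 of the 40 arrays although all were labelled male, in 0 of 3 Purkinje and 4 of 4 Stellate/Basket arrays at P14. The deposited columns of Stellate/Basket P35 replicate 3 and P56 replicate 2 were means of the other 2 columns of their groups and were left out. In these hand-picked pools, fewer cells of a type and less RNA per cell cannot be told apart. The part of these admixtures in the results below was not tested. Results that use Stellate/Basket cells at P56 are given with and without those arrays, and the F test over Purkinje ages with and without P3 and P7. Changes from P3 or P7 have no value without those arrays, and no fit left out the arrays richer in glia markers or Xist as a set.

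From P14 on, Purkinje cells had much more Dpp10, Kcnip1 and Kcnip4 mRNA than Stellate/Basket cells. Kcnd2 was also higher on average, but among single ages it was called at P14, P28 and P56 only. Averaged over the 5 shared ages, the difference was 4.14 ± 0.15 for Dpp10 (17.7-fold), 3.68 ± 0.16 for Kcnip1 (12.8-fold), 3.03 ± 0.18 for Kcnip4 (8.19-fold) and 1.64 ± 0.24 for Kcnd2 (3.12-fold). These 4 of the 9 genes were called, all higher in Purkinje cells, where 11.5% of the 17477 genes tested were called in either direction. The adjusted p were 1.91e-20 for Dpp10, 5.65e-19 for Kcnip1, 3.66e-15 for Kcnip4 and 6.76e-07 for Kcnd2. The median log2 difference of the 9 genes was 0.15, against 0.02 over all genes tested. Without P56 the same count of 4 was called, with 4.62 for Dpp10, 3.67 for Kcnip1, 3.27 for Kcnip4 and 1.35 for Kcnd2.

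**Figure D1:**
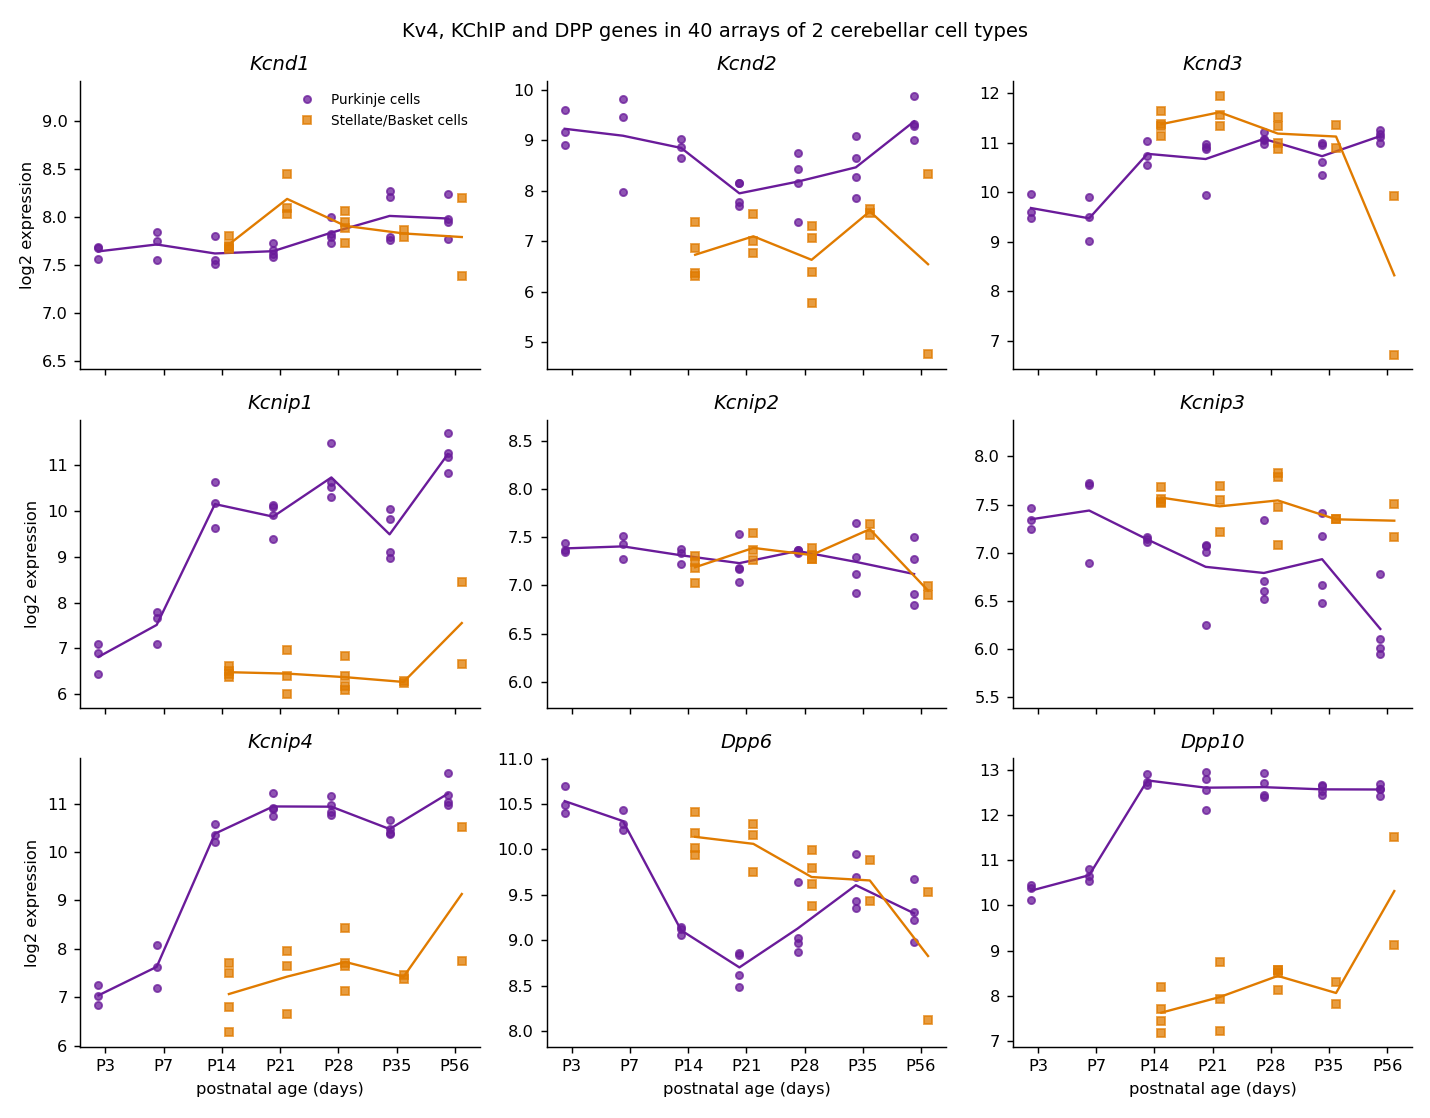
Log2 expression of each of the 9 genes (y axis, own scale per panel) at each age (x axis, equal steps), 1 point per array, with lines through the group means; circles are Purkinje cells and squares Stellate/Basket cells. Dpp10, Kcnip1 and Kcnip4 lie low at P3 and P7 and high from P14 on in Purkinje cells, and the 2 Stellate/Basket arrays at P56 lie far apart for Kcnd2, Kcnd3, Kcnip4 and Dpp10.

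Among the pore subunits, Kcnd3, which encodes Kv4.3, was called at 1 of the 5 shared ages, P56. Its log2 level was 11.04, 10.56 and 10.73 in Purkinje cells at P14, against 11.65, 11.14, 11.35 and 11.37 in Stellate/Basket cells. The groups did not overlap, with Stellate/Basket cells higher, but the difference of -0.60 ± 0.38 did not pass the test (adjusted p = 0.31). At P21 it was -0.95 ± 0.38 (adjusted p = 0.0708), at P28 -0.11 ± 0.35 and at P35 -0.40 ± 0.43, so that Stellate/Basket means were higher at all 4 of these ages without a call at any.

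At P56 Kcnd3 turned the other way. It read 11.11, 11.005, 11.17 and 11.26 in Purkinje cells, against 9.92 and 6.72 in the 2 Stellate/Basket arrays, a difference of 2.82 ± 0.43 (adjusted p = 7.57e-06). These 2 arrays are those with high Purkinje and low interneuron markers, and replicate 1, with the higher Purkinje marker mean, had the higher Kcnd3. The difference was 1.21 without replicate 3 and 4.42 without replicate 1, and called each time, but the mean of all Kcnd3 probe sets gave 0.74 with no call, and a fit of the 2 groups compared alone an adjusted p of 0.0661. Averaged over 5 ages the Kcnd3 difference was 0.15 ± 0.18 (adjusted p = 0.489), and over the 4 ages to P35 it was -0.51 (adjusted p = 0.0259), under the log2 difference of 1 that a call needs.

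Kcnd2 encodes Kv4.2, the subunit best known from dendrites. In Purkinje cells at P14 it read 8.88, 9.02 and 8.65, against 7.38, 6.88, 6.32 and 6.37 in Stellate/Basket cells. The groups did not overlap, and the difference was 2.11 ± 0.51 (4.33-fold, adjusted p = 0.00215). It was also called at P28 (1.55 ± 0.47, adjusted p = 0.00856; 0.67 with no call for the mean of all Kcnd2 probe sets) and at P56 (2.83 ± 0.57, adjusted p = 0.000282). At P21 it was 0.85 ± 0.51 (adjusted p = 0.241) and at P35 0.87 ± 0.57 (adjusted p = 0.335), with 95% intervals from -0.18 to 1.88 and from -0.30 to 2.04. At P56 the Stellate/Basket arrays read 8.33 and 4.77, and the difference was 1.04 without replicate 3 and 4.61 without replicate 1. A limma fit of the 2 groups compared alone gave an adjusted p of 0.0889 at P56, with no call.

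Kcnd1, which encodes Kv4.1 from the X chromosome, stayed within a narrow band, with 7.51 to 8.27 in Purkinje arrays from P14 on and 7.38 to 8.44 in Stellate/Basket arrays. Its averaged difference was -0.07 ± 0.07 (adjusted p = 0.422), with a 95% interval from -0.20 to 0.07, and no age gave a call. At P21 Kcnd1 differed by -0.54 ± 0.14 (adjusted p = 0.0054), below the size a call needs. Xist at that age was above 9 in 3 of 4 Purkinje and 3 of 3 Stellate/Basket arrays.

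**Figure D2:**
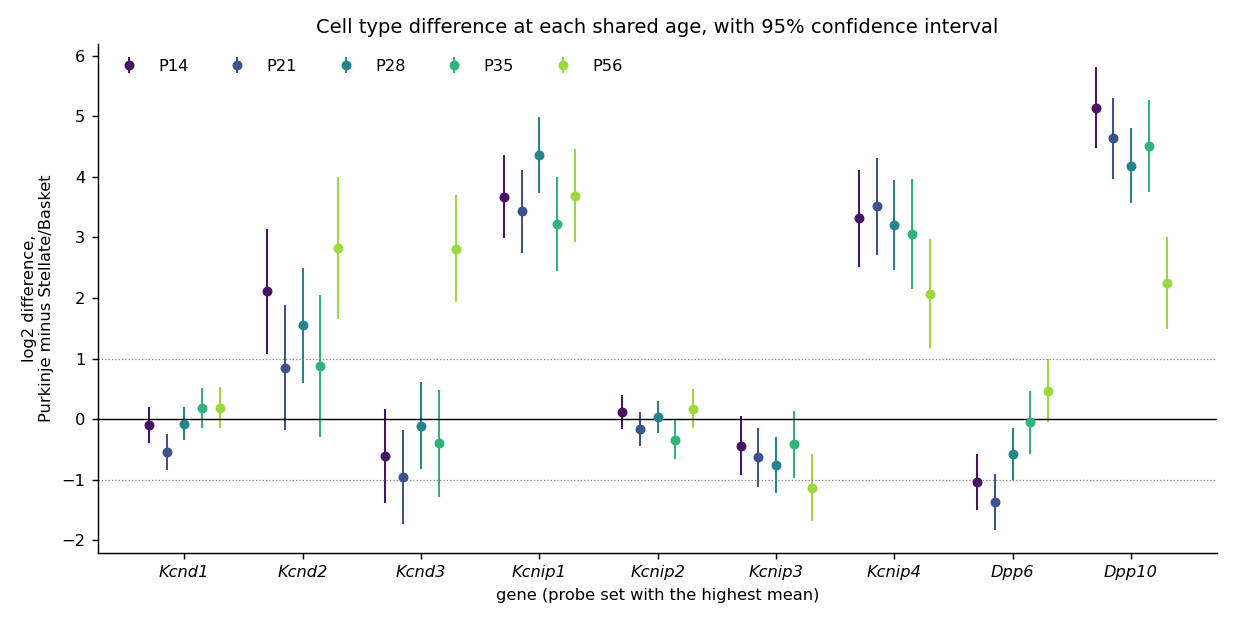
Log2 difference (Purkinje minus Stellate/Basket, y axis) of each gene at each of the 5 shared ages (coloured points, P14 to P56 from left to right), with 95% confidence intervals; dotted lines mark a difference of 1 in either direction. Dpp10, Kcnip1 and Kcnip4 lie above 1 at every age, and Kcnd3 lies near or below 0 until P35 and at 2.82 at P56.

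Of the KChIPs, Kcnip1 and Kcnip4 were called at every shared age, though at P56 the Kcnip4 call depended on the fit. Kcnip1 encodes KChIP1, a subunit that raises Kv4 surface levels. It read 10.18, 10.65 and 9.64 in Purkinje cells at P14, against 6.43, 6.37, 6.50 and 6.63 in Stellate/Basket cells. Over P14 to P56 its Purkinje arrays lay between 8.99 and 11.7 and its Stellate/Basket arrays between 5.997 and 8.44, with no overlap. The difference was called at all 5 ages, between 3.22 ± 0.38 at P35 and 4.36 ± 0.31 at P28.

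Kcnip4 encodes KChIP4, whose best known splice form slows the inactivation of Kv4. At P14 it read 10.36, 10.58 and 10.20 in Purkinje cells, against 7.71, 7.49, 6.28 and 6.79 in Stellate/Basket cells, a difference of 3.31 ± 0.39 (9.94-fold, adjusted p = 6.89e-08). It was called at all 5 ages, from 3.52 ± 0.39 at P21 to 2.07 ± 0.44 at P56. The groups overlapped only when all ages were pooled, through Stellate/Basket P56 replicate 1 at 10.52, which lay within the Purkinje range of 10.20 to 11.63. Replicate 3 read 7.74, and the P56 difference was 0.68 without it and 3.46 without replicate 1. A limma fit of the 2 groups compared alone gave an adjusted p of 0.105 at P56, with no call.

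Kcnip2 and Kcnip3 differed little. Kcnip2, whose product KChIP2 is best known from the heart, was between 6.80 and 7.65 in Purkinje arrays from P14 on and between 6.90 and 7.64 in Stellate/Basket arrays, with an averaged difference of -0.03 ± 0.06 (adjusted p = 0.703). Kcnip3 encodes KChIP3, also called DREAM or calsenilin, which acts as a transcriptional repressor as well. Its averaged difference of -0.67 ± 0.11 had an adjusted p of 8.06e-06 but missed the size of a call, and its Purkinje mean was lower at all 5 ages. At P56 Kcnip3 was called, with 6.01, 6.77, 6.10 and 5.94 in Purkinje cells, against 7.16 and 7.51 in Stellate/Basket cells. That difference was -1.13 ± 0.27 (adjusted p = 0.00168), and -0.95 with no call (adjusted p = 0.0622) without Stellate/Basket replicate 3. It was also not called with Xist as a covariate (-0.95), with median centring (-0.98) or with array weights (-1.25, adjusted p = 0.0717).

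The DPP subunits differed in opposite directions at P14 and P21. Dpp10 had the largest difference of the 9 genes at P14, P21 and P35, and Kcnip1 had it at P28. Its log2 level was 12.90, 12.73 and 12.67 in Purkinje cells at P14, against 7.71, 8.19, 7.44 and 7.17 in Stellate/Basket cells, a difference of 5.14 ± 0.33 (35.3-fold, adjusted p = 1.1e-13). No Stellate/Basket array at any age reached the lowest Purkinje array from P14 on, which was at 12.1. At P21 the difference was 4.64 ± 0.33, at P28 4.18 ± 0.30 and at P35 4.51 ± 0.37. At P56 it was 2.25 ± 0.37 (adjusted p = 2.2e-05), with 11.51 and 9.13 in the 2 Stellate/Basket arrays that carry Purkinje markers. Without replicate 3 it was 1.06, and without replicate 1 it was 3.44, called both times, but a fit of the 2 groups compared alone gave an adjusted p of 0.0568.

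Dpp6 was called lower in Purkinje cells at P14 and P21. At P14 it read 9.06, 9.13 and 9.14 in Purkinje cells, against 10.41, 9.94, 10.02 and 10.18 in Stellate/Basket cells. The difference was -1.03 ± 0.23 (adjusted p = 0.000851), and -0.94 with no call without Stellate/Basket replicate 1. At P21 it was -1.36 ± 0.23 (adjusted p = 2.53e-05), with no overlap between the groups. With the mean of both Dpp6 probe sets the values were -0.62 at P14 and -0.83 at P21, with no call. The main probe set differed by -0.57 ± 0.21 at P28, -0.05 ± 0.26 at P35 and 0.47 ± 0.26 at P56, none of them called.

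By age, 5 of the 9 genes were called at P14, where 13.3% of all genes tested were. 4 were called at P21 (13.5% of all genes) and 4 at P28 (16.5%). 3 were called at P35 (11.2%) and 6 at P56 (20.4%). Dpp10, Kcnip1 and Kcnip4 were called at every one of these ages. Without Stellate/Basket P56 replicate 3, 3 genes were called at P56 in place of 6, namely Kcnd3, Kcnip1 and Dpp10, and a fit of the 2 groups compared alone called 2, Kcnip1 and Kcnip3, in place of 6.

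The promoters shown are those of Dpp10, Kcnip4 and Kcnip1. They were chosen because each gene was called higher in Purkinje cells at every shared age and called higher there at P14 than at P7. Whether the 3 genes moved together was not tested. The windows come from RefSeq on GRCm38.p6, run from 250 bases before to 50 after an annotated start and lie on the minus strand of the build. They are numbered from the most upstream start, and the arrays do not tell which start was used. Capitals mark the nuclear receptor half-site AGGTCA, the GC box sequence GGGCGG, the E-box CAGCTG and the TATA box element TATAAA where either strand holds them, so that a match on the other strand appears as its reverse complement. No matches overlapped.
Dpp10 (chr1:124045510-124045809): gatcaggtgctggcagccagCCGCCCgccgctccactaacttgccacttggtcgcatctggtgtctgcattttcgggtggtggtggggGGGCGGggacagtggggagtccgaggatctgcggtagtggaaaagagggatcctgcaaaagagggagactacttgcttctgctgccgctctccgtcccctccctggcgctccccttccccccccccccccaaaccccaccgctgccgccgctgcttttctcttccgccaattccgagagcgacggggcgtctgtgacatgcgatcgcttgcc
Kcnip4, window 1 (chr5:49285610-49285909): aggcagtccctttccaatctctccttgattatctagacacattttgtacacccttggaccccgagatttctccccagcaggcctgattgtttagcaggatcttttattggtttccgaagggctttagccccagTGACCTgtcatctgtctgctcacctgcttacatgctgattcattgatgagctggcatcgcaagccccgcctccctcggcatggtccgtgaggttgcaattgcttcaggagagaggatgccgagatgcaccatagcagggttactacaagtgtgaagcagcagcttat
Kcnip4, window 2 (chr5:48599633-48599932): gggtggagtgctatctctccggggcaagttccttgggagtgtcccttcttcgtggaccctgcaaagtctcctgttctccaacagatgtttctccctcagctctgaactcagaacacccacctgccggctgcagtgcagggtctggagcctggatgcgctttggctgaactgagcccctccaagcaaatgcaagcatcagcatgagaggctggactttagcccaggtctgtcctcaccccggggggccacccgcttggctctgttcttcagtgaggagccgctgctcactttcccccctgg
Kcnip1, window 1 (chr11:33993144-33993443): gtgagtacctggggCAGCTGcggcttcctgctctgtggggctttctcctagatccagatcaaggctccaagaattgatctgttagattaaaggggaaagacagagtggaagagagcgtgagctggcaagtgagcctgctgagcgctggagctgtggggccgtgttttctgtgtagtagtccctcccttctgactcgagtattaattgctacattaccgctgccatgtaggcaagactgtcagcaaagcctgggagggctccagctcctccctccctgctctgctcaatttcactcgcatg
Kcnip1, window 2 (chr11:33843637-33843936): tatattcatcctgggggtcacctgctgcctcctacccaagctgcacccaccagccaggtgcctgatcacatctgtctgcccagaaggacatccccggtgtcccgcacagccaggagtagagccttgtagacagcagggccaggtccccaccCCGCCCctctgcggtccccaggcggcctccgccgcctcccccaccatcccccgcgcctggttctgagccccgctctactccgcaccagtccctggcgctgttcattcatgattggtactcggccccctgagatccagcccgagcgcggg
Kcnip1, window 3 (chr11:33680633-33680932): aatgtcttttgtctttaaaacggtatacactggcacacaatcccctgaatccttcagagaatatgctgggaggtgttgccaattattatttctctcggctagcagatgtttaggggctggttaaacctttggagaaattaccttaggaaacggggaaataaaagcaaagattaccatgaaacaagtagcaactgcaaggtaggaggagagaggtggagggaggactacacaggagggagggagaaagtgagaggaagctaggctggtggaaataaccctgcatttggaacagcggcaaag

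The single Dpp10 window held 2 GC boxes, at bases -230 and -162 from the start, and had a GC content of 65%. Window 1 of Kcnip4 held a nuclear receptor half-site on the other strand at base -117, and window 2 held none of these motifs. Window 1 of Kcnip1 held the E-box at base -236, window 2 a GC box on the other strand at base -99, and window 3 none. Among all 32851 windows of this length, 35.7% held a GC box, 16.3% the half-site, 16.3% the E-box and 13.6% a TATA box. Of the 15 windows matched to 8 of the 9 members, 8 held a GC box, 2 the half-site, 3 the E-box and 1 a TATA box. No motif was shared by the windows of all 3 genes. Where a window held no match, this says only that these letters are not in that window.

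In Purkinje cells 4 members rose and 1 fell between P7 and P14. Kcnip4 rose by 2.75 ± 0.42 (6.73-fold), Kcnip1 by 2.64 ± 0.36 (6.23-fold), Dpp10 by 2.10 ± 0.35 (4.28-fold) and Kcnd3 by 1.305 ± 0.41 (2.47-fold), while Dpp6 fell, with a difference of -1.20 ± 0.24. The adjusted p were 7.99e-06 for Kcnip4, 1.08e-06 for Kcnip1, 3.3e-05 for Dpp10, 0.0235 for Kcnd3 and 0.000386 for Dpp6. These were 5 of 9 genes, where 12.5% of all genes tested were called. In the same step the interneuron marker mean was 5.79 at P14, against 9.54 at P7, with 7 of 7 markers called lower. The Golgi and unipolar brush cell mean was 6.27 at P14, against 8.94 at P7 (4 of 5 called lower), and the granule cell mean 6.05, against 7.13 (2 of 8 called lower). The Purkinje marker mean was 12.6 at P14, against 9.35 at P7, with 8 of 10 called higher.

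The arrays of each age lay apart for these genes. Dpp10 read 12.90, 12.73 and 12.67 at P14, against 10.55, 10.64 and 10.82 at P7. Kcnip4 read 10.36, 10.58 and 10.20 at P14, against 7.19, 7.63 and 8.07 at P7. Kcnip1 read 10.18, 10.65 and 9.64 at P14, against 7.66, 7.79 and 7.10 at P7, so every P14 array was above every P7 array for these 3 genes. The share of all genes tested that separate in this way is not given here, nor for the other comparisons, so a lack of overlap is descriptive only. Kcnd3 also did not overlap, with 11.04, 10.56 and 10.73 at P14 against 9.91, 9.49 and 9.01 at P7, but its call was lost when any 1 of 4 arrays was left out (P7 replicate 2 or 3, P14 replicate 1 or 3; lowest value 1.08, adjusted p = 0.12, without P7 replicate 3). It was also lost with Xist as a covariate (1.12, adjusted p = 0.101) and with the mean of all Kcnd3 probe sets (0.39). Dpp6 read 9.06, 9.13 and 9.14 at P14, against 10.22, 10.28 and 10.44 at P7. The levels of Dpp6 in Purkinje arrays at P3 and P7, 10.22 to 10.70, were in the range of Stellate/Basket arrays at P14 and P21, which was 9.75 to 10.41, or above it.

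Dpp10 and Kcnd2 at the earliest Purkinje ages lay above their Stellate/Basket ranges from P14 to P35. For Dpp10 the 6 Purkinje arrays at P3 and P7 lay between 10.13 and 10.82, and the 13 Stellate/Basket arrays from P14 to P35 between 7.17 and 8.76. Kcnd2 lay between 7.99 and 9.82 in the same 6 Purkinje arrays and between 5.77 and 7.63 in those Stellate/Basket arrays. Kcnip4 lay between 6.85 and 8.07 at P3 and P7, within the 6.28 to 8.42 of those Stellate/Basket arrays. Stellate/Basket cells at P56 were left out of these ranges. Replicates 1 and 3 at that age read 11.51 and 9.13 for Dpp10, 8.33 and 4.77 for Kcnd2 and 10.52 and 7.74 for Kcnip4. Ages differ between these groups, and no test was made.

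**Figure D3:**
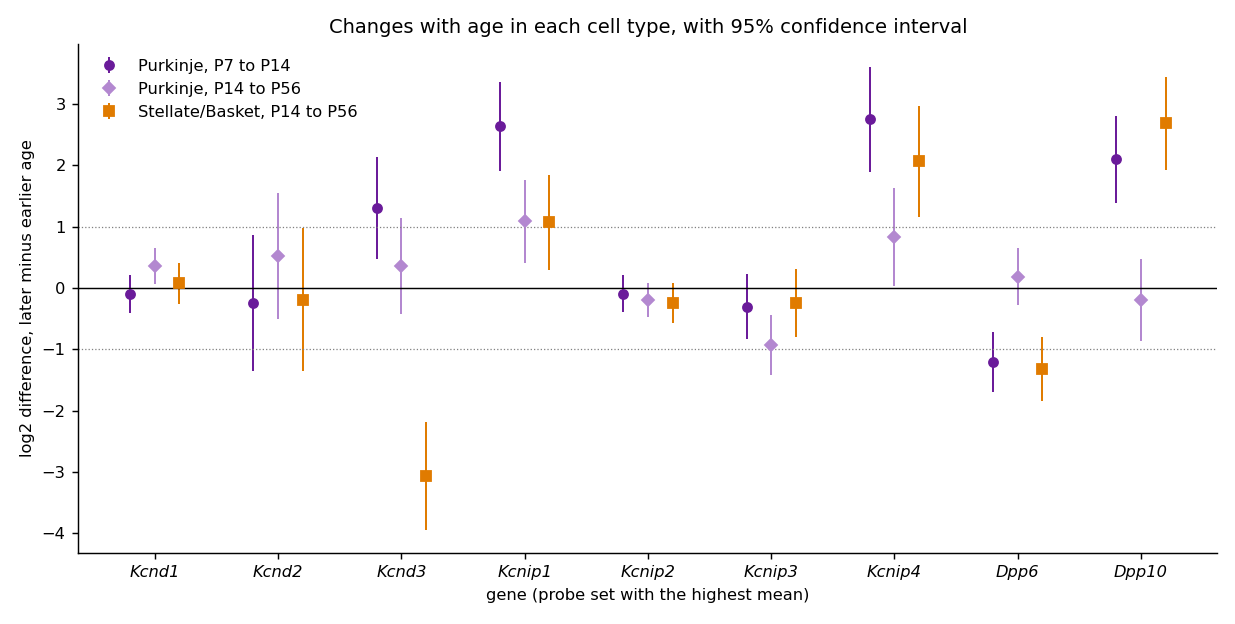
Log2 difference (later minus earlier age, y axis) of each gene for Purkinje cells from P7 to P14 (circles) and from P14 to P56 (diamonds) and for Stellate/Basket cells from P14 to P56 (squares), with 95% confidence intervals; dotted lines mark a difference of 1 in either direction. Kcnip1, Kcnip4 and Dpp10 move most in the first step in Purkinje cells, and Kcnd3 lies at -3.06 in Stellate/Basket cells.

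Over the whole Purkinje series, from P3 to P56, 6 of 9 genes were called, where 16.5% of all genes tested were. Kcnip1 rose by 4.43 ± 0.33 (21.5-fold, adjusted p = 3.51e-12) and Kcnip4 by 4.17 ± 0.39 (18.0-fold, adjusted p = 4.79e-10). Dpp10 rose by 2.24 ± 0.33 and Kcnd3 by 1.46 ± 0.38. Dpp6 fell by 1.24 ± 0.23 and Kcnip3 by 1.14 ± 0.24 on the log2 scale. The Kcnd3 call was lost with the mean of its probe sets (0.38), and the Kcnip3 call with the mean of its probe sets (-0.90) and with quantile normalization (-0.97). Kcnd2, Kcnd1 and Kcnip2 were not called, at 0.15 ± 0.51, 0.34 ± 0.14 and -0.27 ± 0.14. The Purkinje marker mean was 8.74, 8.30 and 6.88 in the P3 arrays, against 12.52 to 12.63 at P56. The interneuron marker mean was 9.51 to 9.62 at P3, against 5.65 to 5.82 at P56. The part of these marker shifts in the changes from P3 was not tested.

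The F test over the 7 Purkinje ages called the same number of genes, 6 of 9, against 25.7% of all genes tested, and these were Kcnd3, Kcnip1, Kcnip3, Kcnip4, Dpp6 and Dpp10. With the mean of all probe sets Kcnd3 and Kcnip3 lost this call. Without the P3 and P7 arrays, which carry interneuron markers, it called 1 of 9. From P14 to P56 in Purkinje cells, Kcnip1 was the 1 gene called, with 1.09 ± 0.33 (adjusted p = 0.0292), against 1.65% of all genes tested. Its arrays read 11.27, 10.83, 11.18 and 11.70 at P56, against 10.18, 10.65 and 9.64 at P14, and the call was lost without any 1 of 4 arrays (P14 replicate 1 or 3, P56 replicate 1 or 4; lowest value 0.83, adjusted p = 0.199, without P14 replicate 3). It was also lost with the mean of all Kcnip1 probe sets (0.36). Kcnip1 did not climb evenly, since its Purkinje mean was 10.7 at P28, 9.49 at P35 and 11.2 at P56. Dpp10 stayed between 12.6 and 12.8 in the group means from P14 to P56. Kcnip3 read 6.01, 6.77, 6.10 and 5.94 at P56, against 7.14, 7.16 and 7.11 at P14, a difference of -0.93 ± 0.24 (adjusted p = 0.0104) that missed the size of a call.

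From P14 to P28, ages with 3 or 4 arrays in both cell types, limma called 0 of 9 genes in Purkinje cells (1.26% of all genes tested) and 0 of 9 in Stellate/Basket cells (5.19%). At an unadjusted p under 0.05 there were 0 genes in Purkinje cells and 2 in Stellate/Basket cells, Dpp6 at -0.44 ± 0.21 and Dpp10 at 0.81 ± 0.30. The test of the difference between these 2 changes called 0 of 9 (4.81% of all genes), and at an unadjusted p under 0.05 it held 1, Dpp10 at -0.96 ± 0.45 (adjusted p = 0.177). Over the same ages the Purkinje marker mean in Stellate/Basket arrays was 10.2 at P28, against 8.43 at P14. Single probe sets beside the main ones were called, among them Kcnd2 probe set 1422834_at in Purkinje cells, at -3.08 ± 0.83 (adjusted p = 0.0217).

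In Stellate/Basket cells from P14 to P56, 5 of 9 genes were called, where 18.6% of all genes tested were. Kcnd3 fell by 3.06 ± 0.43 (adjusted p = 1.76e-06) and Dpp6 by 1.31 ± 0.26 (adjusted p = 0.000184) on the log2 scale. Dpp10 rose by 2.69 ± 0.37 (adjusted p = 1.23e-06), Kcnip4 by 2.07 ± 0.44 (adjusted p = 0.000563) and Kcnip1 by 1.07 ± 0.38 (adjusted p = 0.0291). A fit of the 2 groups compared alone called Dpp10 (adjusted p = 0.0435) and lost the other calls, with adjusted p of 0.0564 for Kcnd3, 0.0724 for Dpp6, 0.14 for Kcnip4 and 0.167 for Kcnip1. With the mean of all probe sets the calls of Kcnip1 (0.63) and Dpp6 (-0.92) were lost. These are the 2 arrays in which the Purkinje marker mean was 12.27 and 10.89, against 7.70 to 10.3 in the Stellate/Basket arrays of the other ages. In the same comparison 8 of 10 Purkinje markers and 10 of 11 astrocyte and Bergmann glia markers were called higher. All 7 of 7 interneuron markers were called lower, with a mean of 5.97 at P56, against 10.3 at P14. The glia marker mean was 10.8 at P56, against 7.41 at P14. The part of these shifts in the 5 calls was not tested.

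Replicates 1 and 3 at P56 lay far apart for all of these genes. Replicate 1 read 11.51 for Dpp10, 10.52 for Kcnip4, 8.44 for Kcnip1, 9.92 for Kcnd3 and 9.53 for Dpp6, each nearer to the Purkinje level at P56 than replicate 3. Replicate 3 read 9.13 for Dpp10, 7.74 for Kcnip4, 6.67 for Kcnip1, 6.72 for Kcnd3 and 8.13 for Dpp6. Without replicate 1 the Kcnip1 change was 0.19 (adjusted p = 0.774) and the Kcnip4 change 0.68 (adjusted p = 0.22), with no call. The Dpp10 change was then 1.51, the Dpp6 change -2.01 and the Kcnd3 change -4.66. The Kcnip1 call was also lost without P14 replicate 1 or 2 (adjusted p = 0.0509 and 0.0521). Without replicate 3 the Dpp6 change was -0.61 (adjusted p = 0.114) with no call, and the Kcnd3 change was -1.45 (adjusted p = 0.00129). Over the 5 ages, the F test in Stellate/Basket cells called Kcnd3, Kcnip4, Dpp6 and Dpp10, 4 of 9 genes, against 23.8% of all genes tested, and without P56 it called 0.

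The change from P14 to P56 differed between the cell types for 3 of 9 genes, where 19.5% of all genes tested were called. The Purkinje change minus the Stellate/Basket change was 3.42 ± 0.58 for Kcnd3 (adjusted p = 5.23e-05), 1.5 ± 0.34 for Dpp6 (adjusted p = 0.00151) and -2.89 ± 0.50 for Dpp10 (adjusted p = 6.57e-05). For Dpp6 it was 0.80 with no call (adjusted p = 0.0922) without Stellate/Basket P56 replicate 3. The Kcnd3 value was 1.81 and the Dpp10 value -4.08 without that array, and 5.02 and -1.71 without replicate 1, called each time. For Kcnip1, called in both cell types, the changes differed by 0.02 ± 0.50. Its Stellate/Basket change was 0.19 without P56 replicate 1 and 1.96 without replicate 3, so the small difference does not show equal changes.

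**Figure D4:**
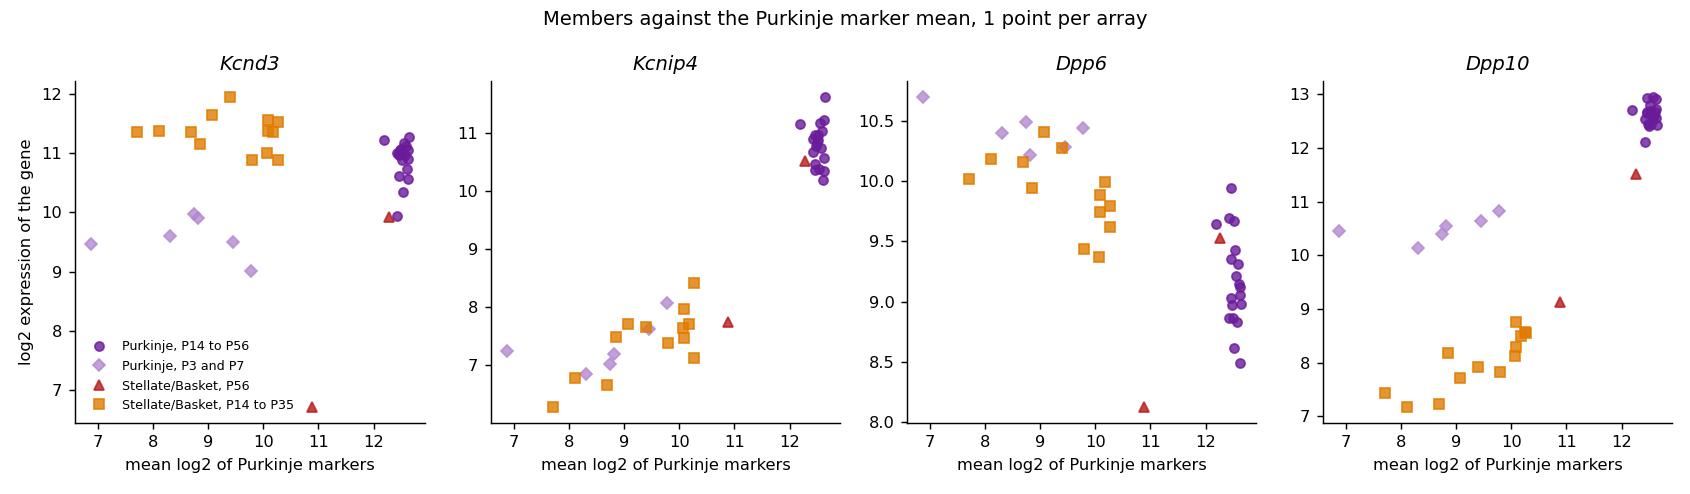
Log2 expression of Kcnd3, Kcnip4, Dpp6 and Dpp10 (y axes, own scale per panel) against the mean log2 level of 10 Purkinje markers (x axis), 1 point per array; colours and shapes give cell type and age. The 2 Stellate/Basket arrays at P56 (triangles) lie at 12.27 and 10.89 on the x axis, and the array at 10.89 lies below all others for Kcnd3 and Dpp6.

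The 12 groups were put in order of their means, and each was checked for overlap with the next group only. For Dpp10 the 5 Purkinje groups from P14 on each overlapped the next and lay above all others, then came Purkinje cells at P7 and at P3, each apart from the group above it. Stellate/Basket cells at P56 overlapped Purkinje cells at P3, and the other 4 Stellate/Basket groups lay below them, each overlapping the next. For Kcnip1 the break came below Purkinje cells at P35, with 9.49, and the next group was Stellate/Basket cells at P56, with 7.56. For Kcnip4 the 1 break came below Purkinje cells at P28, with 10.9, and Purkinje cells at P35 and P14 and then Stellate/Basket cells at P56, with 9.13, followed. For Kcnd2 all 7 Purkinje groups lay above all 5 Stellate/Basket groups in their means, with breaks below Purkinje cells at P21 and below Stellate/Basket cells at P35. Stellate/Basket P56 replicate 1, at 8.33, nevertheless lay above both of these breaks. For Kcnd1 every neighbour in the order overlapped the next, and the same held for Kcnip3, Dpp6 and Kcnd3.

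Several probe sets per gene allowed a check within the array. The 2 Dpp10 probe sets followed each other closely over the 40 arrays (Pearson r = 0.971), and the second, 1436661_at, gave an averaged difference of 3.75 ± 0.15. Kcnip4 probe set 1451840_at followed the main one (r = 0.951) and gave 2.43 ± 0.22, and Kcnip1 probe set 1416785_at (r = 0.939) gave 1.999 ± 0.13. Kcnd2 probe sets 1450773_at and 1422834_at gave 1.08 ± 0.23 and 1.43 ± 0.39, with r = 0.752 and 0.634. In all, 9 of the 27 probe sets were called in the averaged difference, all of them of the 4 called genes, where 9.15% of all probe sets tested were called. Other probe sets of these genes were not called. They were Kcnd2 1447764_at (r = -0.149), Kcnip1 1433156_at (0.53) and 1454504_at (0.265), and Kcnip4 1450370_a_at (0.703). Array points share library, amplification and cell type, so these r describe agreement and carry no test.

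Other probe sets disagreed. Kcnd3 probe set 1442555_at (r = 0.541 with the main one) was called lower in Purkinje cells at P14, P28 and P35, where the main one was not called. At P14 it read 6.73, 6.19 and 6.72 in Purkinje cells, against 8.31, 8.38, 8.26 and 8.34 in Stellate/Basket cells, a difference of -1.78 ± 0.25 (adjusted p = 1.4e-06). It fell in Stellate/Basket cells from P14 to P28, with a difference of -1.16 ± 0.23 (adjusted p = 0.000622). Another Kcnd3 probe set, 1426070_a_at, ran against the main one (r = -0.642) over a span of group means of 0.61. Both Kcnip3 probe sets were called lower in Purkinje cells at P56, at -1.13 and -1.16, and their averaged differences were -0.67 and -0.65. The second Dpp6 probe set, 1439748_at, gave an averaged difference of -0.07 ± 0.16.

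**Figure D5:**
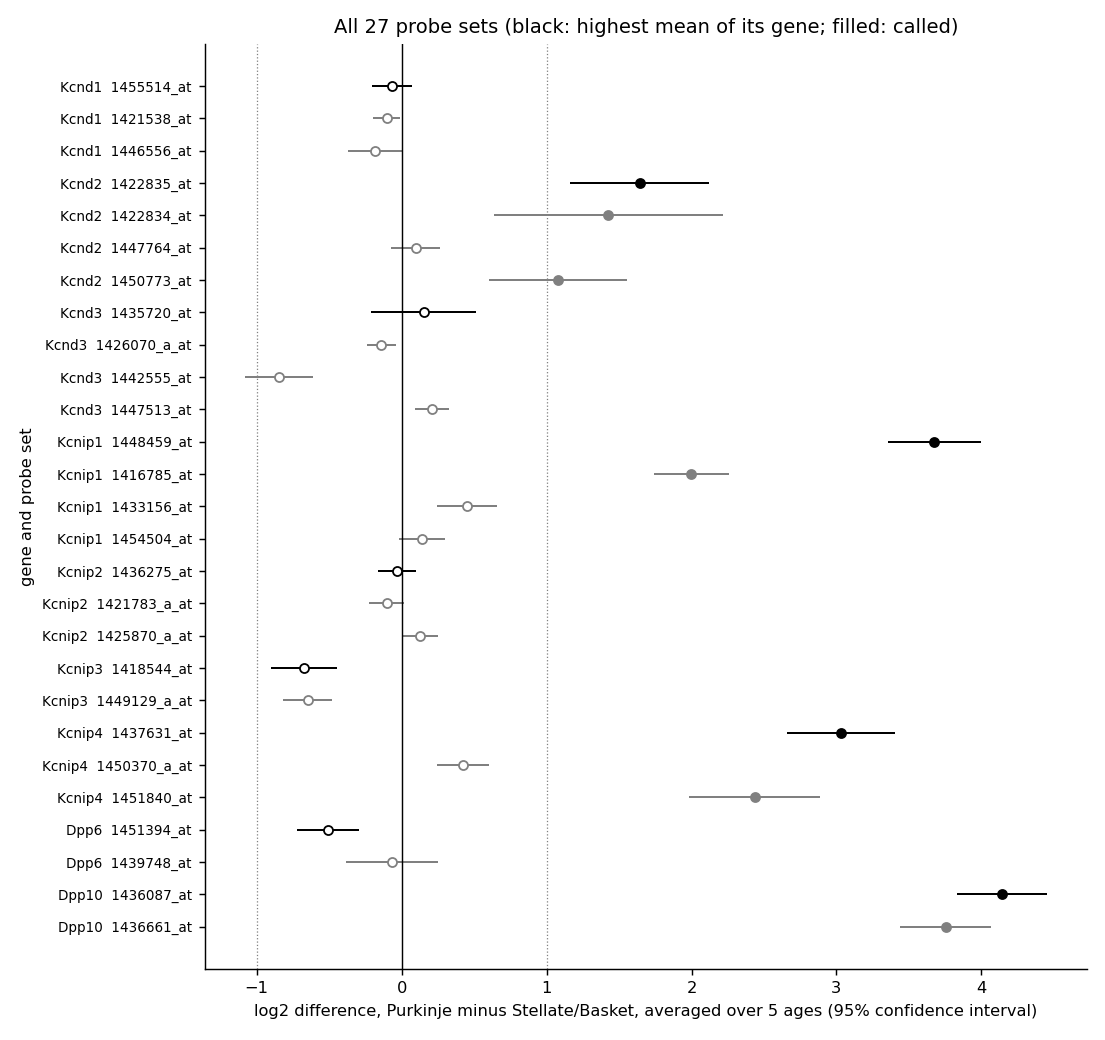
Averaged log2 difference (Purkinje minus Stellate/Basket over 5 ages, x axis) with 95% confidence interval for each of the 27 probe sets (y axis, by gene); black marks the probe set with the highest mean of its gene and filled points are called. The 9 filled points are all above 1 and belong to Kcnd2, Kcnip1, Kcnip4 and Dpp10.

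The genes whose 12 group means ran most like a member's were taken from 2841 genes with a span of at least 2 log2 units. For Dpp10 they were Chst15 (r = 0.991), Grm7 (0.988) and Igf1 (0.985), a sulfotransferase, a metabotropic glutamate receptor and a growth factor. For Kcnip4 they were Cyp27a1, Rspo3 and Stk17b (0.992 each), and for Kcnip1 Dhrs3 (0.988), Pde9a (0.987) and Cdr2 (0.985). For Kcnd3 they were Lhfp (0.948), St8sia5 (0.938) and Dnm1 (0.931), and for Kcnd2 Vstm2a (0.948), Plagl1 (0.914) and Shroom2 (0.914). These r are over 12 means that share the same arrays and describe likeness only.

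Other genes of the pathway were counted by role in the averaged cell type difference. Among 7 neuronal calcium sensors, relatives of the KChIPs, 2 were higher in Purkinje cells and 2 lower, where 11.5% of all genes tested were called in this comparison. Hpcal1 was higher by 3.07 ± 0.10 and Hpca by 1.02 ± 0.15, while Vsnl1 was at -3.83 ± 0.20 and Hpcal4 at -3.56 ± 0.12. The median of the 7 was -0.53, against 0.02 over all genes tested.

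Among 5 relatives of the DPP proteins 1 was called, the serine protease Fap, higher by 2.26 ± 0.12. Of the T-type calcium channels, which form complexes with Kv4, 2 were tested and Cacna1g was higher by 2.10 ± 0.14. None of the 7 other binding partners tested was called in the averaged difference by limma. Of 4 other channels and subunits of inactivating potassium current, Kcnab1 (4.22 ± 0.21) and Kcnab2 (1.51 ± 0.13), cytoplasmic subunits of Kv1 channels, were higher and the Kv3 channel Kcnc4 was lower (-2.67 ± 0.12). Of 4 tested genes of kinases that phosphorylate Kv4, the CaMKII genes on the list were called, Camk2b at 1.67 ± 0.16 and Camk2a at 1.04 ± 0.13.

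From P14 to P28, limma called 0 genes of these 6 lists in Purkinje cells, where 1.26% of all genes tested were called. In Stellate/Basket cells, where 5.19% of all genes were called, Hpcal1 rose by 1.23 ± 0.19, Kcnab1 by 1.79 ± 0.41, Dlg1, a scaffold protein, by 1.46 ± 0.32 and Dpp7, a lysosomal peptidase, by 1.03 ± 0.33. The Purkinje change minus the Stellate/Basket change was -1.33 ± 0.28 for Hpcal1 (adjusted p = 0.0033), -1.81 ± 0.47 for Dlg1 (adjusted p = 0.016) and 1.14 ± 0.33 for the actin-binding protein Flna (adjusted p = 0.0313). In Stellate/Basket arrays 6 of 10 Purkinje markers and 10 of 11 astrocyte and Bergmann glia markers were called higher at P28 than at P14, and their part in these changes was not tested.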

How the data were processed

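The authors normalized the values before they deposited them, on a log2 scale with 1 value per probe set. R 2.9.1 and GCRMA appear in the submitters' processing notes, and what each did is not given in the sources used here. Probe sets with several symbols (932) or none (9160) were not used as genes, and 34945 had 1 symbol. Columns that equalled the mean of others of their group within 1e-08 were left out, so 40 of 42 columns were used, 25 of Purkinje and 15 of Stellate/Basket cells. A linear model with 1 mean for each of 12 groups of cell type and age was fitted in limma 3.58.1 (R 4.3.3), with moderated variances. P-values were adjusted by Benjamini-Hochberg over 41843 probe sets within each of 16 comparisons. No further scaling was applied. Simulated data with known changes were used to test the scripts. Python 3.11.15 with matplotlib 3.10.9 drew the figures. P-values measure the spread between the columns, which the labels call biological replicates.

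All 9 members are named. Other pathway genes are named if called in the averaged cell type difference or in a comparison from P14 to P28, and the 3 genes most like a member are named where its group means span at least 2 log2 units. The members and lists were chosen with earlier results of these data known. Same-numbered columns of the 2 cell types did not deviate together: 3 of 14 pairs had a correlation over 0.1 (range -0.099 to 0.208), so the numbers were not used as pairs. Alternatives covered the filter, features, probe set summary, variance model, array weights, block, scaling, thresholds, which arrays entered the fit, and each array left out in turn. Xist as a covariate was added after the data were seen. Sequences came from RefSeq windows on GRCm38.p6. The array files name no genome build, so no other coordinates are given.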

Additional observations from a re-analysis of the deposited data

Results flagged for a closer look

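In Purkinje cells at P21, replicate 1 lay apart for 2 members. Its Kcnd3 level was 9.94, where the nearest of the other 3 arrays was at 10.88 and the highest at 10.97. Its Kcnip3 level was 6.25, where the nearest other array was at 7.01 and the highest at 7.08. Chance alone sets apart about 1 group in 20 by this measure. Of the 54 groups examined, each the 4 arrays of 1 cell type and age for 1 gene, 2 were set apart. Both came from the same array, so they do not count as independent.

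The change from P14 to P56 differed between Purkinje and Stellate/Basket cells for Kcnd3 (Purkinje change minus Stellate/Basket change 3.42), Dpp6 (1.5) and Dpp10 (-2.89). All 3 rest on the 2 Stellate/Basket arrays at P56, whose values stand in the report.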

How the results depend on the processing

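In all, 77 results were recomputed. The averaged cell type difference called 4 genes in every setting run, single arrays left out included, except 6 with no minimum difference. The averaged Kcnd3 difference turned to -0.16 with the mean of all probe sets and to -0.51 without P56, and that of Kcnip2 to 0.0233 under quantile normalization and 0.0202 under median centring. Leaving out single arrays gave -0.17 to 0.47 for Kcnd3 and -0.148 to 0.0145 for Kcnd1, with the sign turned without Stellate/Basket P56 replicate 3.

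At P56, 2 genes were called in a fit of the compared groups alone, and 3 to 7 with 1 array left out. For Purkinje P14 to P56 there were 0 with the mean of probe sets or an adjusted p under 0.01, 2 with array weights, no minimum difference or Xist as a covariate, and 0 to 2 with 1 array left out. For Stellate/Basket P14 to P56 there were 3 with the mean of probe sets and 1 in a fit of the compared groups alone. For P14 to P28 in Stellate/Basket cells 1 array left out gave 0 to 1, and for the difference between the changes to P28 array weights gave 1. The Purkinje F test called 1 without P3 and P7, and the Stellate/Basket F test 2 in a fit of its groups alone and 0 without P56. Except where values show it, the cause was not tested.

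With the replicate number as a block, 4 genes were called in the averaged difference, and the block changed 0 of the 77 calls and counts. The few arrays per group, 2 in Stellate/Basket cells at P35 and P56, and the lack of detection calls limit the precision.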
